A study of Homo sapiens with 6 samples.

Results

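Imprinted genes are transcribed from 1 parental copy, and 10 of them were followed here through maps of histone lysine acylation: H19, IGF2, MEG3, DLK1, KCNQ1OT1, PEG3, PEG10, MEST, SNRPN and PLAGL1. They are 10 of the 62663 genes in the GENCODE 44 annotation of hg38, taken by name, and a peak was assigned to a gene where it overlapped the gene body or the 5 kb on either side of it. The study mapped lysine acetylation (Kac) and lysine benzoylation (Kbz) of histones by ChIP-seq with pan antibodies, which bind the modified lysine on any histone, in cells labelled HepG2, a human hepatocellular carcinoma line. Kbz carries a benzoyl group in place of the acetyl group, and sodium benzoate (SB) was added at 10 mM for 24 h as its precursor. The 6 libraries fall into 6 groups of 1: untreated control cells and SB-treated cells, each as input without antibody, Kac and Kbz. The 3 peak lists analysed here are control Kac (70326 peaks), SB Kac (63282 peaks) and SB Kbz (24308 peaks). No peak list of the control Kbz library was at hand, and the inputs were not analysed here. All samples share the cell line and the culture medium, so no other genotype is represented.

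With 1 library per group there is no replicate error and no test between groups, so counts are given as descriptions beside the same count over all genes. The lists hold peaks and no read counts, so the depth is unknown, and they carry no strand and no parental allele. The fold of a peak over its background was read only as a percentile among the peaks of its own list. The lists differ in length and strength, so a lower percentile in one list than in another does not show a weaker mark. As a check of the cell label, promoters (within 3 kb of an annotated transcription start site, TSS) of hepatocyte markers held a control Kac peak at 4 of 10 genes, an SB Kac peak at 5 and an SB Kbz peak at 2. No promoter peak of any list was found at ALB, APOB, SERPINA1, FGB or FOXA2, while APOA1 and APOA2 had one in each list. Blood markers had a promoter peak at 2, 2 and 1 of 5 genes and neuron markers at 2, 2 and 3 of 4 genes, in the same order of lists. Over all protein-coding genes the shares were 76.5%, 75.7% and 64.6%. Hepatocyte markers thus fell below these shares in each list, and the check does not bear out the cell label. The part of these marker patterns in the results below was not tested.

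In imprinting, the parental copies of a gene differ in DNA methylation at a control region set in the germ line, and the expressed copy differs from its silent partner in chromatin. Imprinted genes lie in clusters and many of them act on fetal growth and metabolism, with several reexpressed or deregulated in liver tumours. H19 and MEG3 are long noncoding RNAs expressed from the maternal copy, while the other 8 genes are expressed from the paternal copy. IGF2 is a fetal growth factor, DLK1 a transmembrane protein of the Notch ligand family and KCNQ1OT1 a noncoding RNA that silences its neighbours in cis. PLAGL1 and PEG3 encode zinc finger proteins, PEG10 a protein derived from a retrotransposon, MEST a protein of the alpha/beta hydrolase fold and SNRPN a protein of small nuclear ribonucleoproteins.

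The 10 genes fell into 4 patterns in the lists as deposited, which differ in length. IGF2, KCNQ1OT1, PEG10 and PLAGL1 had peaks in all 3 lists, and MEG3 and DLK1 had Kac peaks in both states and no Kbz peak. MEST had a control Kac peak and no other, and H19, PEG3 and SNRPN had no peak in any list. The patterns changed with the threshold, and with 15000 peaks per list MEG3, DLK1 and MEST had no peak in any list. In all, 7 of 10 genes had a control Kac peak, against 52.2% of all genes, 6 had an SB Kac peak, against 50.4%, and 4 had an SB Kbz peak, against 38.7%. With 10 genes, each count lay within 2 genes of what the share of all genes gives, and none is read as a result about the members. Peaks reaching a −log10 q of 5 were found at 4, 3 and 2 members, against 33.9%, 34.9% and 26.8% of all genes. Of the 7 protein-coding members 5, 4 and 3 had a peak in control Kac, SB Kac and SB Kbz, where 82.6%, 81.4% and 72.3% of all protein-coding genes did. Of the 3 noncoding RNAs 2, 2 and 1 did, beside 54.4%, 51.7% and 36.1% of all lncRNA genes. Kbz was found at 0 of the 2 maternally expressed genes and at 4 of the 8 paternally expressed ones, beside 38.7% of all genes. The expressed allele is background knowledge, the lists carry no allele, and with so few genes this split is not read as a result. All 3 lists were shared by 4 members and 37.9% of all genes. An SB Kac peak without a control Kac peak was found at 0 members and at 2.93% of all genes. No peak in any list was the pattern of 3 members and of 44.5% of all genes, and 2 of the 7 coding members had it, PEG3 and SNRPN, beside 15.5% of protein-coding genes.

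At promoters the counts were also 7, 6 and 4 of 10, against 43.8%, 42.6% and 31.9% of all genes. Of the 7 coding members 5, 4 and 3 had a promoter peak, where 76.5%, 75.7% and 64.6% of protein-coding genes did. The 4 patterns kept their members at promoters, with all 3 lists at 4 members and 31.4% of all genes, both Kac lists without Kbz at 2 and 8.25%, control Kac without SB Kac at 1 and 4.16%, and no list at 3 and 53%. The canonical TSS itself lay under a peak at 2 of 10 genes in each list, KCNQ1OT1 and PLAGL1, against 28.4%, 28.3% and 20.4% of all genes. The remaining promoter peaks lay beside the canonical TSS or at other annotated starts. Together the 10 windows, 679210 bp, held 21 control Kac peaks, 16 SB Kac peaks and 6 SB Kbz peaks. These covered 38351 bp (5.65%), 26617 bp (3.92%) and 8938 bp (1.32%) of the windows, where windows of all genes were covered to 6.5%, 6.12% and 2.07%. Median lengths were 1184, 1161.5 and 1537.5 bp, beside 1211, 1196 and 1097 bp over the whole lists.

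**Figure D1:**
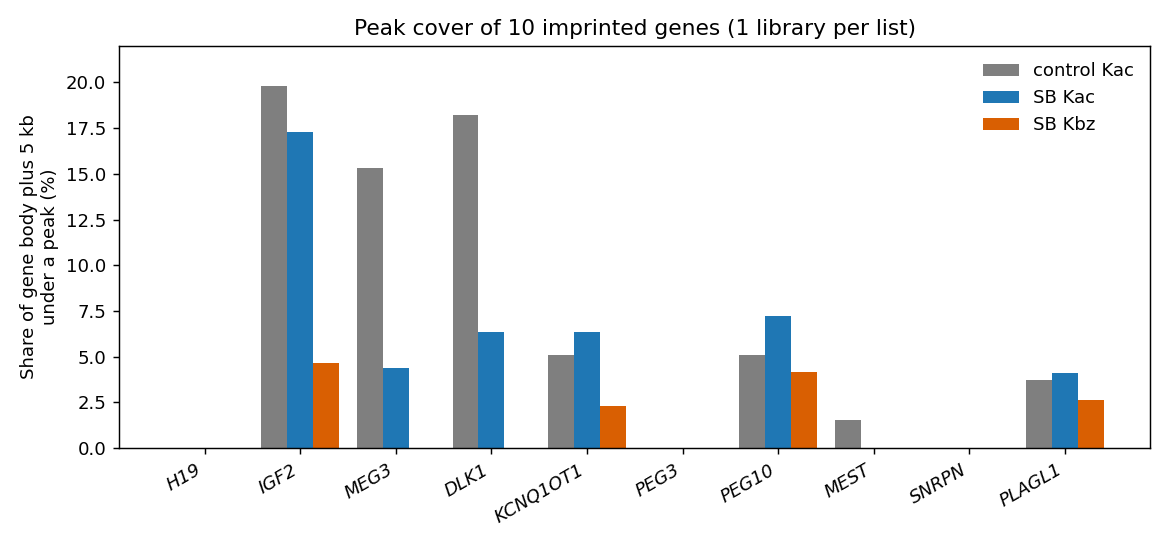
Share of each gene's body plus 5 kb that lies under peaks, in percent, for control Kac (grey), SB Kac (blue) and SB Kbz (orange), 1 library per list and no error bars. IGF2 has the largest covered share in both Kac lists (19.8% and 17.3%), MEG3 and DLK1 drop from 15.3% and 18.2% in control Kac to 4.36% and 6.35% in SB Kac, and H19, PEG3 and SNRPN are at 0 in each list.

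Most peaks at these genes ranked below the middle of their lists. The median percentile of the fold was 41.3 (control Kac), 32.0 (SB Kac) and 45.8 (SB Kbz), and 7 of 21, 6 of 16 and 2 of 6 peaks lay above their list's median. Of the 16 SB Kac peaks, 8 had a listed −log10 q under 2, beside 24.8% of the whole list. The study's methods name a false discovery rate of 0.01, a −log10 q of 2. How the listed q of a broad peak relates to that cutoff is not given, so these peaks are not read as failing it. The same held for 5 of 21 control Kac peaks (18.6% of that list) and for 0 of 6 SB Kbz peaks (11.4%).

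Of the 21 control Kac peaks 13 overlapped an SB Kac peak (61.9%, Wilson 95% interval 40.9 to 79.2), beside 64.7% of the whole list, and 12 of 16 SB Kac peaks overlapped a control Kac peak (75.0%, 50.5 to 89.8), beside 72.5%. Kbz lay within the Kac maps: each of the 6 Kbz peaks met acetylation of SB-treated cells (61.0 to 100%), as 93.7% of that list did, whereas 6 of the 16 SB Kac peaks met benzoylation (37.5%, 18.5 to 61.4), beside 33.8%. The latter share was 75% among peaks that reached a −log10 q of 2, as it was with 15000 peaks per list. With 15000 peaks per list, 3 of 4 Kbz peaks (75%) met an SB Kac peak. The overlap thus varied with the lengths of the lists, and the deposited SB Kac list is longer than the SB Kbz list. Where 50% of both peaks had to overlap, 28.6% of the control Kac peaks met an SB Kac peak, 37.5% the reverse, and 50% of the Kbz peaks met an SB Kac peak. The intervals cover counting error only, and peaks of 1 gene share a locus. The share of the whole list lay inside the interval in each of the 4 comparisons at an overlap of 1 bp.

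**Figure D2:**
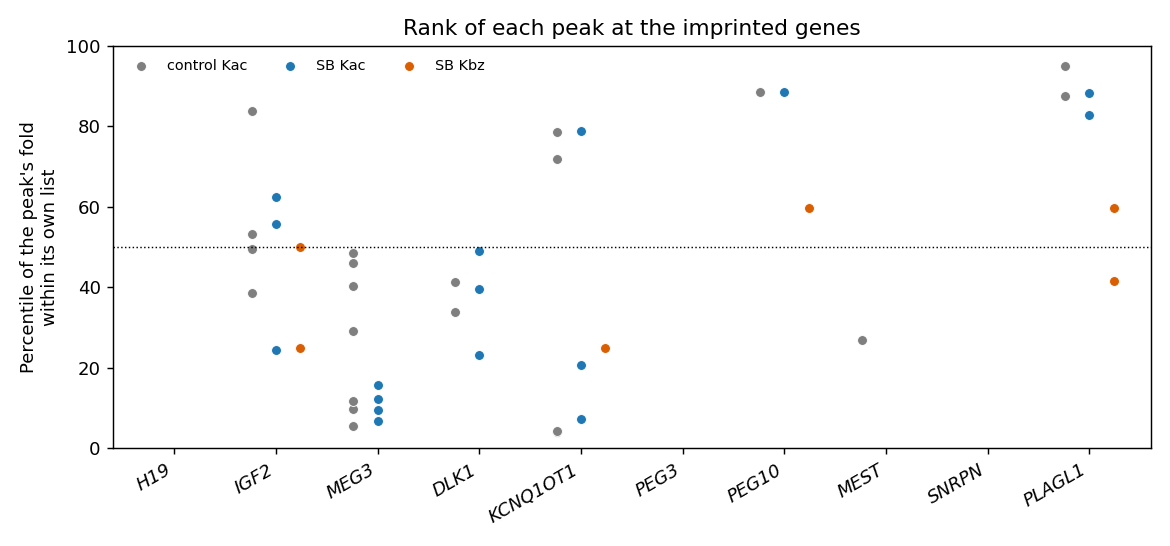
Percentile of each peak's fold within its own list (vertical axis, 0 to 100) for every peak at the 10 genes, with the list median as a dotted line at 50. PLAGL1 and PEG10 Kac peaks sit between 82.8 and 95, MEG3 peaks lie below 50 in both Kac lists, and the Kbz peaks lie between 24.8 and 59.7.

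PLAGL1, at chr6:143940300-144064599 on the minus strand, carried the highest −log10 q among the 10 genes in each list. PLAGL1 encodes a zinc finger transcription factor that restrains cell proliferation, and its imprinted promoter is shared with the noncoding RNA HYMAI. The peak over the canonical TSS at 144008259 spanned chr6:144006164-144009013 in control Kac (percentile 95, −log10 q 12.1), chr6:144006204-144009257 in SB Kac (88.4, 13.9) and chr6:144006929-144008896 in SB Kbz (59.6, 7.99). The distal start at 144064599 carried a second set, chr6:144063080-144065245 in control Kac (87.6, 7.66), chr6:144063039-144065530 in SB Kac (82.8, 8.36) and chr6:144063437-144064974 in SB Kbz (41.5, 4.52). Thus both starts were marked in all 3 lists, and at each start the Kbz peak was the shortest of the 3. The peaks over the canonical TSS also covered the TSS of HYMAI, so that they cannot be assigned to either gene. The covered length was 5016 bp in control Kac and 5546 bp in SB Kac, 1.11 times as much.

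Promoter sequences were taken from a RefSeq table of GRCh38.p14, which held 35116 stretches from 250 bases before to 50 after a start and matched H19, MEG3, MEST, SNRPN and PLAGL1. IGF2, DLK1, KCNQ1OT1, PEG3 and PEG10 had no entry. The following are shown because they contrast both marked PLAGL1 starts with unmarked starts of other members. Capitals mark CpG dinucleotides, the bases at which imprints are written as methylation, each runs 5′ to 3′ on the gene's strand, and annotated UTR bases were left out.
PLAGL1 canonical start, chr6:144008431-144008509, minus strand: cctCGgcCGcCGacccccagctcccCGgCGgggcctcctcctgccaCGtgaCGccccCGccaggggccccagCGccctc
PLAGL1 distal start, chr6:144064600-144064849, minus strand: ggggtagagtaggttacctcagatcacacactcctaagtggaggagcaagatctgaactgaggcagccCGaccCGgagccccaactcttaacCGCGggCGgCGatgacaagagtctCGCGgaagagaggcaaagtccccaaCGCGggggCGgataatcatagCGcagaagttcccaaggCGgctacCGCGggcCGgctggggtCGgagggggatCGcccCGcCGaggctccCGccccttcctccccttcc
MEG3, chr14:100825858-100826107, plus strand: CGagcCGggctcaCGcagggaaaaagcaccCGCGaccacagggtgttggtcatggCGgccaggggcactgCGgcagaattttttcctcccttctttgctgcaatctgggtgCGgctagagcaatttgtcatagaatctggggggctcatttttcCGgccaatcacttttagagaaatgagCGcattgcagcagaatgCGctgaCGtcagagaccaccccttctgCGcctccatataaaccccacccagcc
MEST, chr7:130491835-130492084, plus strand: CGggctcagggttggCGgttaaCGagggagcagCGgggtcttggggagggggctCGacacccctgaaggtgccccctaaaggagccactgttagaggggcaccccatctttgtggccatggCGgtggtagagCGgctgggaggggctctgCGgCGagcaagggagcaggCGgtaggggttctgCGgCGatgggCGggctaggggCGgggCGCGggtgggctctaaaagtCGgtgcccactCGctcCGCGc
SNRPN, chr15:24954737-24954934, plus strand: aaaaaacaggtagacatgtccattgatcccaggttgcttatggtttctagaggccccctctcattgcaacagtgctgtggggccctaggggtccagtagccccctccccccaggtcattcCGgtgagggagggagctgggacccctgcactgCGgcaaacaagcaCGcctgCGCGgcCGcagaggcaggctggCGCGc
H19, chr11:2001267-2001516, minus strand: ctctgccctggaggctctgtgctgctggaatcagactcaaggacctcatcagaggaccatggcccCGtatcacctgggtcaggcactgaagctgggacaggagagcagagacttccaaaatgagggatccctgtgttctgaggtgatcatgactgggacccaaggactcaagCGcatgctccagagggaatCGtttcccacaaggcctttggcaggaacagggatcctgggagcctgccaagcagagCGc
At the canonical PLAGL1 start 171 annotated UTR bases were left out, so the 79 printed bases hold only 9 CpG. The ratio of observed to expected CpG over the full 300 bases was 0.928 at the canonical PLAGL1 start, with 39 CpG, and 0.912 at the distal one, with 31. These put the 2 starts at percentiles 84.1 and 82.1 of all promoters. Both lay under peaks of all 3 lists. The other 3 PLAGL1 starts had ratios of 0.172 to 0.244 and lay under no peak. MEG3 (0.666 to 0.728, 3 starts) and MEST (0.658 to 0.821, 5 starts) lay above the median of all promoters, 0.579, and under no peak. The 3 MEG3 stretches overlap one another, as do some of the MEST stretches, so they are not separate sequences. Members without an entry are outside this comparison, and the part of CpG content was not tested. SNRPN (0.101 to 0.583, 4 starts) and H19 (0.242) were under no peak either. Among the 17166 promoters with a ratio of at least 0.6, 76.2%, 78.1% and 65.2% lay under control Kac, SB Kac and SB Kbz peaks.

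**Figure D3:**
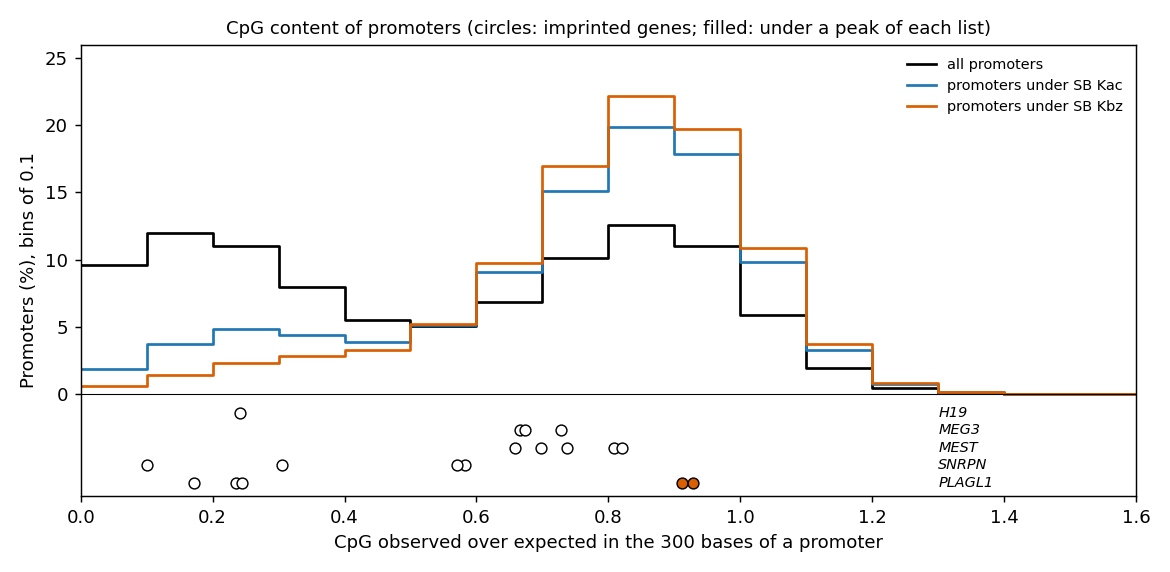
Share of promoters (percent, upper part) by the ratio of observed to expected CpG in bins of 0.1, for all promoters and those under SB Kac or SB Kbz peaks, with the starts of 5 imprinted genes as circles on the same horizontal axis. The filled circles, under a peak of each list, are the PLAGL1 starts at 0.912 and 0.928, while the MEG3 and MEST starts between 0.658 and 0.821 are open, under no peak.

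PEG10, at chr7:94656325-94669695, encodes a Gag-Pol-like protein with roles in placental growth, and shares a bidirectional promoter with SGCE, a sarcoglycan gene on the opposite strand. Its window held 1 peak per list: chr7:94655004-94656187 in control Kac (percentile 88.6, −log10 q 6.87), chr7:94654452-94656146 in SB Kac (88.6, 8.96) and chr7:94655147-94656118 in SB Kbz (59.7, 5.49). All 3 ended before the first PEG10 start at 94656325, by 138, 179 and 207 bp, and all 3 covered a TSS of SGCE. Thus none of the 3 could be given to PEG10 rather than SGCE. The covered length was 1184 bp in control Kac and 1695 bp in SB Kac, 1.43 times as much.

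KCNQ1OT1, at chr11:2597308-2700003 on the minus strand, starts inside an intron of KCNQ1, a potassium channel gene, and runs antisense to it. Its TSS at 2700003 lay under chr11:2698396-2701630 in control Kac (percentile 78.7, −log10 q 5.62), under chr11:2698411-2704019 in SB Kac (78.9, 6.86) and under chr11:2698498-2701128 in SB Kbz (24.8, 3.12). The SB Kac peak, 5609 bp long, overlapped both this control Kac peak and the next one, chr11:2702948-2704082 (72.0, 4.35). The TSS was therefore covered in all 3 lists. The other peaks in the gene body, 2 in control Kac and 2 in SB Kac, ranked between 4.1 and 20.7. The covered length was 5764 bp in control Kac and 7173 bp in SB Kac, 1.24 times as much, and the KCNQ1 promoter itself had an SB Kac peak (10.7) and none in the other lists.

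IGF2, at chr11:2129112-2158391 on the minus strand, has 10 annotated starts and the largest share of its window under Kac peaks, 19.8% in control Kac and 17.3% in SB Kac, though not the largest covered length. Insulin-like growth factor 2 drives fetal growth, and its fetal and adult liver transcripts use different promoters. The highest ranked peak, chr11:2153791-2158245 in control Kac (percentile 83.9, −log10 q 6.36), reached to 91 bp downstream of the start at 2158336, and starts of INS and INS-IGF2 lay within 3 kb of it. In SB Kac it was met by chr11:2154427-2157080 (55.8, 2.89) and in SB Kbz by chr11:2156271-2156562 (50, 4.18), 292 bp long. Upstream of the start at 2149579 were chr11:2151084-2152538 in control Kac (53.3), chr11:2149785-2153236 in SB Kac (62.4) and chr11:2150573-2152109 in SB Kbz (24.8). Kbz peaks therefore lay inside SB Kac peaks at both sites, while at the second site the Kbz peak reached past the control Kac peak. A start at 2137287 lay under chr11:2136980-2137970 in control Kac (38.5) and chr11:2136980-2137652 in SB Kac (24.5), where no Kbz peak was listed, and chr11:2146912-2147794 (49.5) was listed in control Kac without an SB Kac partner. The canonical TSS at 2139389 lay under none of these peaks. The covered length was 7784 bp in control Kac and 6779 bp in SB Kac, 0.871 times as much. A ratio as low or lower was found at 37.9% of the 29743 genes with both Kac marks.

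MEG3 and DLK1 lie next to each other on chromosome 14 and had Kac peaks without Kbz, a pattern of 9.61% of all genes. MEG3, at chr14:100779410-100861031, is a noncoding RNA with tumour suppressor properties that is silenced in many cancers. It held 7 control Kac peaks and 4 SB Kac peaks, which covered 14041 and 3993 bp. The SB Kac cover was 0.284 times the control Kac cover, and 3.19% of the 29743 genes with both marks had a ratio as low, where the median ratio was 0.982. The longest control Kac peak, chr14:100839303-100845760 (6458 bp, percentile 40.4, −log10 q 3.34), met chr14:100839248-100840502 in SB Kac (1255 bp, 6.82, 1.84). The peak chr14:100830257-100832985 (46.0, 2.98) covered the start at 100830605 and had no SB Kac partner, as was the case for 5 of the 7 control Kac peaks. Every peak was thus below the middle of its list, at 5.6 to 48.4 in control Kac and 6.82 to 15.8 in SB Kac. At a −log10 q of at least 2, MEG3 kept control Kac peaks and lost all 4 SB Kac peaks. The SB Kac values at MEG3 thus rest on peaks with a listed −log10 q under 2. The start at 100826108, whose upstream sequence is printed with the promoters, was 4149 bp from the nearest control Kac peak and 8696 bp from the nearest SB Kac peak, and the nearest Kbz peak lay 23910 bp from the gene body.

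DLK1, at chr14:100725705-100738224, encodes a protein of fetal liver and preadipocytes that inhibits adipocyte differentiation. Its control Kac peaks were chr14:100719524-100722678 (percentile 41.3, −log10 q 2.99) and chr14:100728960-100731078 (33.8, 2.59), the latter 1930 bp downstream of the start at 100727030. Its SB Kac peaks were chr14:100721744-100722126 (23.2, 1.79), chr14:100723577-100724274 (39.6, 2.18) and chr14:100730503-100730852 (49.0, 3.53). Peaks were thus shorter in SB Kac, with 1 of 3 lying within 3 kb of a start. The cover was 4093 bp in control Kac and 1431 bp in SB Kac, a ratio of 0.35 that was reached by 4.76% of genes with both marks. Each gene of the pair had a lower SB Kac cover, and they share the locus and the libraries, so they are not independent of each other. The nearest Kbz peak lay 30107 bp from DLK1.

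**Figure D4:**
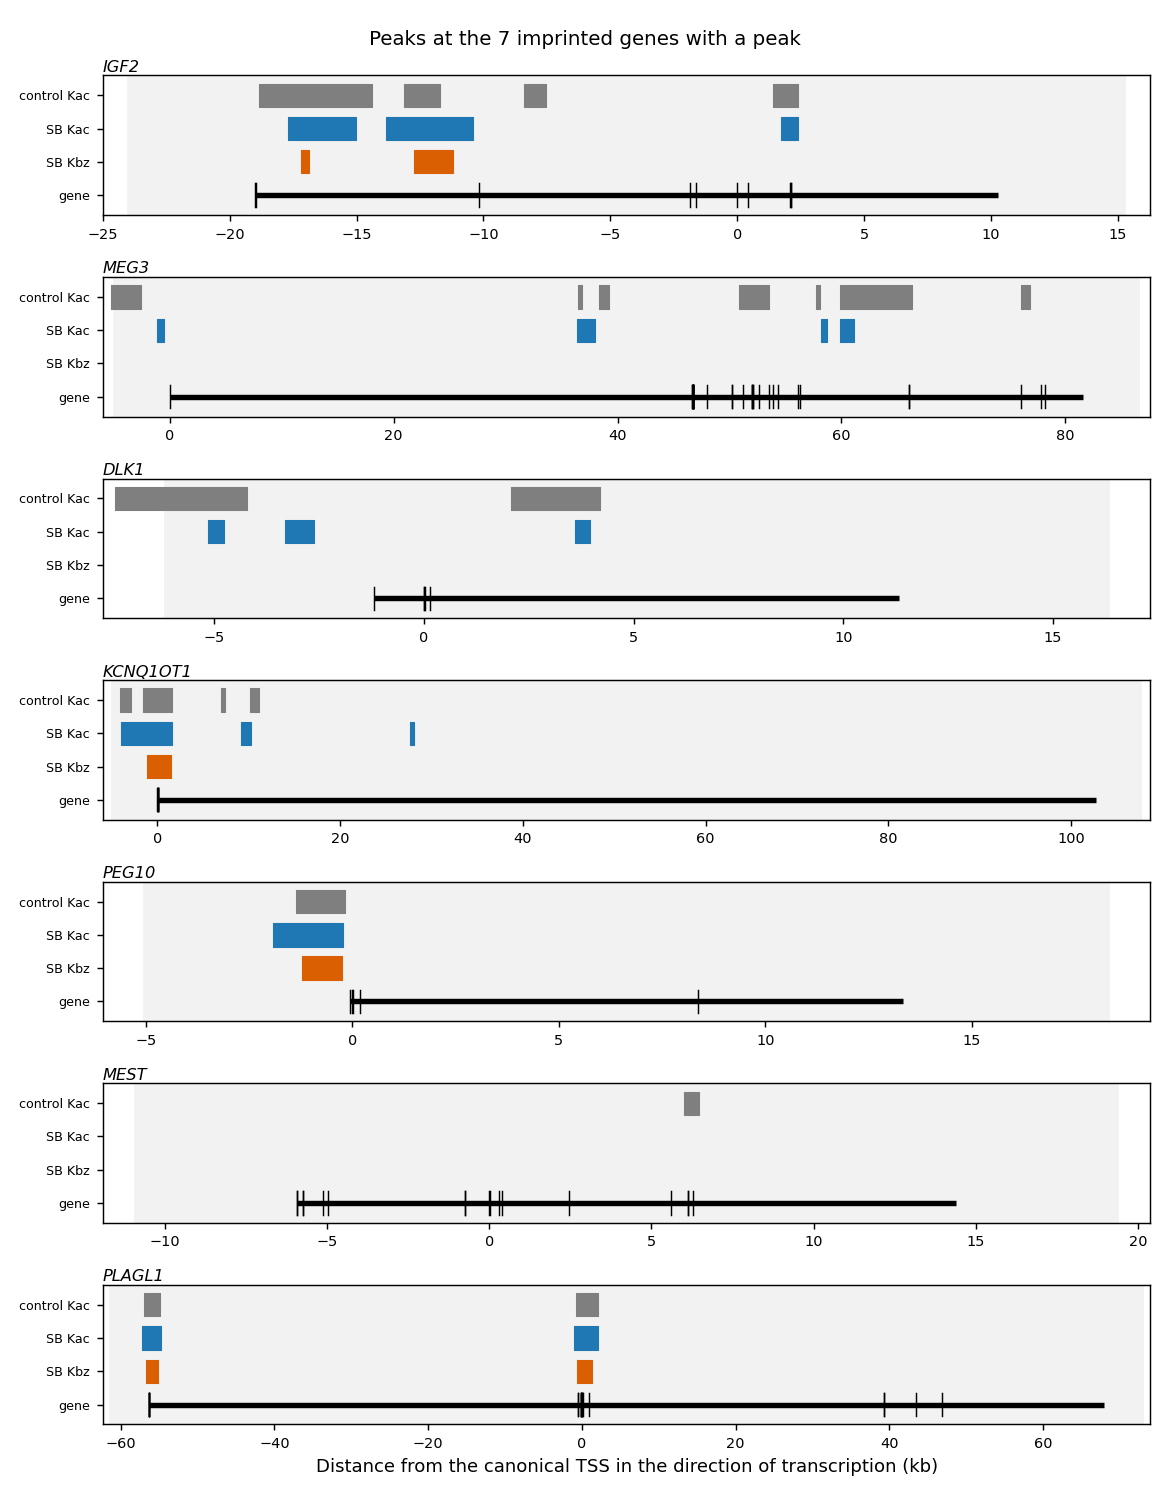
Peaks at the 7 imprinted genes with a peak, drawn along the distance from each canonical TSS in the direction of transcription (kb), with control Kac in grey, SB Kac in blue and SB Kbz in orange, the gene as a black line with its starts as ticks and the 5 kb flanks shaded with it. Kbz blocks lie inside SB Kac blocks at IGF2, KCNQ1OT1, PEG10 and PLAGL1, MEG3 and DLK1 show Kac without Kbz, and MEST shows 1 control Kac peak of 469 bp.

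MEST, at chr7:130486171-130506465, is named for its expression in mesoderm, the origin of connective tissue and muscle. Its window held 1 peak, chr7:130498080-130498548 in control Kac (469 bp, percentile 26.9, −log10 q 2.01), over the start at 130498225 and 5995 bp from the canonical TSS. The MIR335 start lay within 3 kb of it. A control Kac peak without an SB Kac peak was the pattern of 4.76% of all genes. This peak lay in the lower part of its list, and the nearest SB Kac and SB Kbz peaks were 41078 and 44235 bp from the gene body.

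H19, PEG3 and SNRPN had no peak in body plus 5 kb. The nearest control Kac, SB Kac and SB Kbz peaks lay 57899, 51049 and 67714 bp from the H19 body, distances that 20.7%, 24.4% and 29.3% of all genes reached or passed. PEG3, which encodes a zinc finger protein of the control of maternal behaviour and growth, was 214017, 214103 and 214162 bp away (9.22%, 10.9% and 13.6% of genes as far). SNRPN, a gene of the Prader-Willi region, was 459211, 459013 and 460525 bp away (4.83%, 5.68% and 6.5%). These 3 genes differed in how far they were from any peak, with SNRPN the farthest and H19 the nearest in each list. An absence means only that the list analysed here held no peak there.

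The control region upstream of H19 is bound by CTCF, an insulator protein, on the maternal copy, which separates IGF2 from enhancers beyond H19. The 14-letter CTCF core CCGCGNGGNGGCAG was searched on both strands in each window, and the matches are shown because H19 held 5 of the 6 found.
H19 match, chr11:1999968-1999981, minus strand: CCGCGCGGCGGCAG
H19 match, chr11:2000780-2000793, minus strand: CCGCGTGGCGGCAG
H19 match, chr11:2002213-2002226, minus strand: CCGCGCGGCGGCAG
H19 match, chr11:2002614-2002627, minus strand: CCGCGCGGCGGCAG
H19 match, chr11:2003019-2003032, minus strand: CCGCGCGGCGGCAG
PLAGL1 match, chr6:144064088-144064101, minus strand: CCGCGCGGAGGCAG
Of 6939 tiles of chromosome 11 as long as the H19 window, 17 (0.245%) held a match and 1 held as many as 5. The tiles took in the H19 locus itself, so that 1 tile may hold these same matches. Enrichment of the core at H19 was not tested. All 5 H19 matches lay inside the annotated H19 body, chr11:1995166-2004552, whose canonical TSS is at 2004552. On this minus strand they also lay upstream of other annotated H19 starts, among them 1997875 and 1999485. Whether they fall in the control region was not tested. The H19 promoter stretch printed above belongs to a start at 2001266, which is not the canonical TSS. The H19 matches lay between 55851 and 75567 bp from the nearest peak of the 3 lists, whereas the PLAGL1 match lay under a peak of each. The other 8 windows held no match, which says only that these letters were absent there. A second motif, the hexamer TGCCGC bound by ZFP57, a protein that keeps imprints methylated, occurs in 16.7% of promoters. Its reverse complement is part of the core wherever the open base after GG is a C, as in the 5 H19 matches, so these are not separate motifs there.

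Sequence under the peaks also differed among the members. The ratio of observed to expected CpG in the 6 Kbz peaks had a median of 0.698, beside 0.473 over the SB Kbz list, and it was 0.906 and 0.846 at PLAGL1, 0.703 at PEG10, 0.694 at KCNQ1OT1 and 0.236 and 0.121 at IGF2. A ratio of at least 0.6 was reached by 4 of 6 member Kbz peaks and 37.0% of the list. In control Kac it was reached by 4 of 21 member peaks and 10.4% of the list, and in SB Kac by 3 of 16 and 11.8%. The IGF2 Kbz peaks were thus CpG-poor while the others were CpG-rich.

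Other imprinted genes, a list of 36 neighbours and further loci, had a promoter peak of control Kac at 23 (63.9%), of SB Kac at 27 (75%) and of SB Kbz at 19 (52.8%). Most of the 36 are protein-coding, and the shares at promoters were 43.8%, 42.6% and 31.9% over all genes and 76.5%, 75.7% and 64.6% over protein-coding genes. Without the 6 whose start lies within 6 kb of a member's start, the counts were 20, 24 and 17 of 30. Among the 36, 18 had all 3 marks at the promoter (31.4% of all genes and 64.1% of protein-coding genes), as IGF2, KCNQ1OT1, PEG10 and PLAGL1 did, the first by position being ZDBF2, FAM50B, HYMAI, IGF2R and GRB10. The pattern of MEG3 and DLK1, both Kac marks without Kbz (8.25% and 9.38%), was shared by 5: IGF2-AS, CDKN1C, RTL1, MEG8 and DIO3. RTL1, MEG8 and DIO3 lie in the same cluster on chromosome 14, and their top promoter peaks in control Kac and SB Kac stood at percentiles 27.4 and 13.8, 82.5 and 13.8, and 98.8 and 92.6. The SB Kac value of RTL1 and of MEG8 is the same (−log10 q 1.68). MEG9, further along this cluster, was at 98.3, 94.2 and 91.7 in control Kac, SB Kac and SB Kbz.

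The pattern of MEST was found at 0 of the 36 genes, while 4 others had an SB Kac promoter peak and no control Kac promoter peak, the case for 0 of the 10 members and 2.92% of all genes: KLF14, KCNQ1 and MAGEL2 without Kbz, and ZNF597 with Kbz. The pattern of H19, PEG3 and SNRPN, no promoter peak in any list (53% and 21.2%), was shared by 9, the first being DIRAS3, NAP1L5, MESTIT1, MKRN3 and NDN. Likeness here is over 3 lists only, and IGF2-AS, HYMAI and MESTIT1 share promoter regions with members. UBE3A, the gene of the Angelman region downstream of SNRPN, stood at 89.0, 90.6 and 99.3, so the absence of peaks at SNRPN did not extend to UBE3A. The lists do not show from which allele UBE3A is expressed in these cells.

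**Figure D5:**
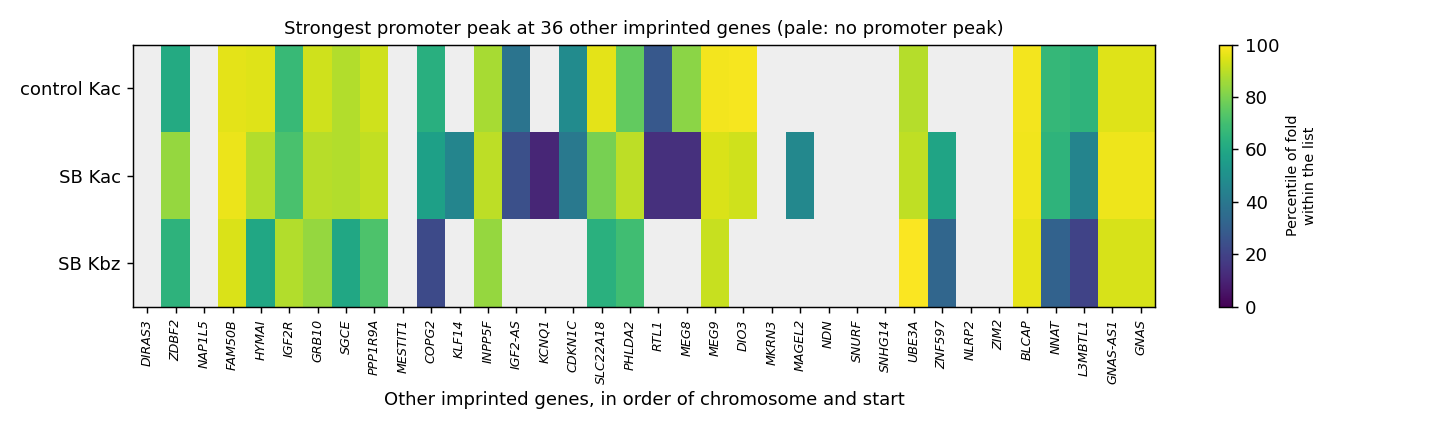
Percentile of the strongest promoter peak (colour, 0 to 100 within each list) at 36 other imprinted genes, in order of chromosome and start, for the 3 lists as rows. Pale cells hold no promoter peak, which is the case in each list for 9 genes, among them MKRN3, NDN, SNURF and SNHG14 near SNRPN, while UBE3A reaches 99.3 in SB Kbz.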

How the data were processed

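Chromatin of cells labelled HepG2 was cut with MNase and precipitated with pan anti-Kac or pan anti-Kbz antibody, 1 library per group. Per the methods and the submitters' processing notes, the authors aligned 50 bp single reads to hg38 with Bowtie2 2.2.6, kept unique reads, removed duplicates with SAMtools 0.1.19 and called peaks per library with MACS2 2.1.1 at a stated FDR of 0.01. The broad setting and the background track are not given in the sources used here, and the lowest deposited −log10 q is 1.31 in each list. The deposited broad peak lists hold a score (not used), a ratio (fold over background, used as a percentile within its list) and −log10 p and q. The lists analysed here carry no counts, so the depth is unknown and no floor can be set.

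Peaks on 24 chromosomes were kept (3 control Kac peaks elsewhere were dropped). No chromosome was exceeded by a peak in the reference. Overlap of at least 1 bp with gene bodies plus 5 kb, and with promoters of 3 kb on either side of any TSS, was computed over GENCODE 44 with Python 3.11.15, numpy 2.4.6, pandas 2.3.3 and scipy 1.17.1, and sequence was read with pysam 0.24.0 and samtools 1.23.1. Tested on simulated data, 200 of 200 windows with a planted peak and 0 of 200 with a peak 1 base outside were called, and 187989 window counts differed from bedtools 2.31.1 in 0 cases. All 10 members are named, with at most the 3 peaks of highest fold per list given by coordinates unless they are promoter peaks. The members and lists were chosen with earlier results of these data known. 1 gene of the hepatocyte marker list is not reported here and was left out of its counts. Alternatives changed the q threshold, list size, window, promoter, annotation, assignment, merging and overlap.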

Additional observations from a re-analysis of the deposited data

How the results depend on the processing

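Of 121 alternative values over 19 results, 78 stayed within the spread allowed and 43 moved. At a −log10 q of at least 2, SB Kac peaks in the windows numbered 8, the covered share was 4.84% (control Kac) and 2.95% (SB Kac), and 75% of SB Kac peaks met a Kbz peak. At a −log10 q of at least 5, members with a peak, and with a promoter peak, numbered 4, 3 and 2 in control Kac, SB Kac and SB Kbz, with 5, 4 and 2 peaks covering 2.05%, 1.89% and 0.433%. There, 80% of control Kac peaks met an SB Kac peak, 100% the reverse, and 16 other imprinted genes had an SB Kac promoter peak. With 15000 peaks per list, members with a peak, and with a promoter peak, numbered 3 in each list, with 4 peaks in each. The cover there was 1.57%, 1.89% and 0.702%. Other imprinted genes with a promoter peak were 15 (control Kac) and 16 (SB Kac), and 75% of SB Kac peaks met a Kbz peak. The cover was 5.06%, 3.15% and 1.12% over bodies alone, 5.11%, 3.46% and 1.2% with 10 kb flanks and 4.9%, 3.57% and 1.42% with RefSeq genes. With overlap of 50% of both peaks, 28.6% of control Kac peaks met an SB Kac peak, 37.5% the reverse, and 50% of Kbz peaks met an SB Kac peak. PEG10 and PLAGL1 kept peaks in all 3 lists at each threshold. MEG3 lost its SB Kac peaks at a −log10 q of 2, so its pattern became that of MEST. Stricter thresholds leave fewer peaks by construction, and the cause of the other moves was not tested. No paired analysis was possible because a single library stands behind every group, and for the same reason no replicate could be left out. Depth, which is unknown, limits what an absent peak can show.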

Other observations

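Peaks within 1 Mb centred on each gene were counted as values of the surroundings. The H19, IGF2 and KCNQ1OT1 stretches, which overlap on chromosome 11, held 63, 57 and 59 control Kac peaks, 62, 56 and 64 SB Kac peaks and 24, 26 and 26 SB Kbz peaks, where the median of 2941 tiles of 1 Mb was 16, 14 and 5. H19 thus lacked peaks in a stretch with many of them. The MEG3 and DLK1 stretches, which also overlap, held 65 and 69 control Kac peaks, 45 and 56 SB Kac peaks and 13 and 17 SB Kbz peaks. MEST held 35, 37 and 17, PLAGL1 22, 19 and 11, PEG10 13, 8 and 4, and PEG3 11, 10 and 10. SNRPN held 0, 0 and 0, as did 10.5%, 12.4% and 15% of the tiles. H19 and SNRPN, both without a peak in their windows, therefore differed in this count.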
